A study of Mus musculus with 43 samples.

Results

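Genes of the angiotensin, apelin, endothelin and natriuretic peptide systems were followed in mouse inguinal white adipose tissue, a subcutaneous depot in the groin. They were 10 of the 22622 gene identifiers in each deposited table: the angiotensin precursor Agt, the converting enzyme Ace and the angiotensin receptors Agtr1a and Agtr2, the apelin precursor Apln and its receptor Aplnr, the endothelin precursor Edn1 and the receptors Ednra and Ednrb, and the natriuretic peptide receptor Npr1. The genes were chosen by family, with the results of the comparisons below already known. Fold changes and adjusted p-values therefore describe these genes, and nothing is read from how many of them passed a threshold.

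The series holds 43 libraries of poly(A) RNA in 9 groups. Mice carrying floxed TrkA with Th-cre were sampled at P28 and 22 C (n = 4), floxed Bcl6 mice with Prx1-cre at P25 and 22 C (n = 8) and at 9 weeks and 4 C (n = 4), and C57BL/6J wild-type mice at P28 and 22 C (n = 4) and at 9 weeks and 4 C (n = 4). Each was set against the libraries of its own table: wild type at P28 and 22 C for TrkA (the same 4 libraries), floxed Bcl6 without cre at P25 and 22 C (n = 7) and at 9 weeks and 4 C (n = 4), wild type at P28 and 30 C (n = 4), and wild type at 9 weeks and 22 C (n = 4). Both Bcl6 genotypes carry the floxed allele, whereas the mice set against TrkA-flox Th-cre are labelled C57BL/6J with neither a floxed allele nor cre. The Th promoter drives cre in tyrosine hydroxylase cells such as sympathetic neurons, and Prx1-cre recombines in mesenchymal cells, chiefly of the limb. Whole tissue was sequenced, so fewer cells of a type and less RNA per cell cannot be told apart.

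In the angiotensin system the precursor is made by liver and fat and is cut in steps, by renin and by Ace, to the peptide that tightens vessels through Agtr1a, while Agtr2 often opposes it. Apelin acts on Aplnr, mainly in endothelial cells, where the pair takes part in vessel growth. The endothelin peptide tightens vessels through Ednra on smooth muscle, and Ednrb on endothelium can relax them and clears the peptide. Npr1 is the receptor of the atrial and B-type natriuretic peptides, raises cyclic GMP and promotes lipolysis, best known from human fat cells.

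Values are normalised read counts per gene as deposited. Estimated depth was lowest in the TrkA table, at 3490000 to 6420000 reads per library, and highest in the 9-week Bcl6 table, at 16800000 to 30400000. Ucp1, the uncoupling protein of thermogenic fat cells, averaged 21150 in wild-type mice at 9 weeks and 4 C against 289 at 22 C, and 1758 at P28 and 22 C against 109 at 30 C. Libraries labelled Prx1-cre had more Bcl6 than those without cre, 2714 against 825 at P25 and 11610 against 1995 at 9 weeks, and gene totals do not show which exons were read. Adipocyte markers were present throughout, with sums of the 7 measured between 36820 and 578400 per library. Skeletal muscle markers varied widely, with sums of 8 markers between 15.2 and 473600, the highest in a floxed Bcl6 library at 9 weeks and 4 C.

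Cooling of adult mice raised the angiotensin precursor 8.87 times and lowered the apelin receptor and, of the endothelin receptors, Ednra alone. Of the 9 genes that passed the filter, 1 rose (Agt) and 2 fell (Aplnr and Ednra), in a table where 4.47% of 12118 tested genes passed in either direction. These were 542 genes, and with any 1 library left out between 36 (without cold replicate 1) and 356 passed. Cooling at P28 (22 C over 30 C) gave a different picture: Ednra rose, with Apln and Aplnr pointing the same way below the threshold. There 1 of 9 tested genes passed, beside 4.45% of 12283 genes (547, against 176 without the replicate 4 at 22 C and up to 714 with another library left out). The steps differ, 18 C in adults and 8 C at P28, as do age and warm baseline, so these cannot be told apart in the contrast of the effects.

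Agt had 1774, 1004, 776 and 1343 normalised counts in adult fat at 4 C, against 185, 139, 83.0 and 146 at 22 C. Every cold library lay above every library at 22 C. The means were 1224 ± 434 at 4 C and 138 ± 41.9 at 22 C (SD, n = 4 each), a difference of 3.13 ± 0.30 (SE) on the log2 scale (limma adjusted p = 0.00399). At P28 the gene had 178, 170.1, 212 and 220 counts at 22 C, against 249, 237, 266 and 222 at 30 C. These groups did not overlap either, with the cooler one lower, but the change of -0.33 ± 0.10 did not pass (limma adjusted p = 0.121). The adult effect exceeded that at P28 by 3.45 ± 0.32 on the log2 scale (95% interval 2.74 to 4.17, adjusted p = 0.000614, t reference on limma fits). In that contrast of effects 3.33% of 11618 genes passed.

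Aplnr (chr2:85136360-85139923) had 68.5, 94.5, 102 and 73.0 counts in adult fat at 4 C, against 301, 276, 331 and 327 at 22 C. The cold group lay wholly below, at 0.273 of the mean at 22 C, and its log2 change was -1.87 ± 0.16 (limma adjusted p = 0.00248). At P28 the receptor pointed up instead: 622, 489, 400 and 384 counts at 22 C, against 248, 302, 301 and 434 at 30 C. At 30 C 1 library lay above the lower pair at 22 C, and the change of 0.56 ± 0.19 did not pass (limma adjusted p = 0.151). The effects differed by -2.44 ± 0.25 (adult minus P28, 95% interval -2.96 to -1.91, adjusted p = 0.000259, t reference on limma fits).

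Endothelial markers moved with Aplnr in adults. The summed level of the 12 listed endothelial genes was 4981 to 6137 at 4 C and 6832 to 7526 at 22 C, with no overlap, and 1 of 11 tested fell (Cldn5). Their median log2 change was -0.40, beside 0.02 over all genes and -1.87 for Aplnr. At P28 the sums were 5883 to 8120 at 22 C and 6480 to 8058 at 30 C, and none of 11 passed. Schwann cell markers were also lower in the adult cold, with sums of 1468 to 1640 at 4 C and 3018 to 3917 at 22 C, and 2 of 7 fell. The part of these cells in the level of Aplnr was not tested.

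Ednra had 141, 209, 182 and 173 counts in adult fat at 4 C, against 271, 311, 267 and 307 at 22 C. The groups did not overlap, and the log2 change was -0.72 ± 0.14 (limma adjusted p = 0.0332). That call was lost when any of cold replicates 1, 3 and 4, or of the replicates 1, 2 and 4 at 22 C, was left out; over all 8 such fits its change stayed between -0.81 and -0.62, with adjusted p between 0.0425 and 0.0982. At P28 the same receptor had 209, 197, 157 and 193 counts at 22 C, against 99.3, 117, 112 and 112 at 30 C. Here the cooler group lay wholly above (0.77 ± 0.11, limma adjusted p = 0.00735). The effects differed by -1.49 ± 0.18 (adult minus P28, 95% interval -1.87 to -1.12, adjusted p = 0.000434, t reference on limma fits).

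Smooth muscle and pericyte markers, the cells in which Ednra is best known, summed to 4817 to 7761 in adults at 4 C and 7713 to 10340 at 22 C. Of 11 tested, 2 fell (Rgs5 and Cspg4), with a median log2 change of -0.10. At P28 the sums were 5457 to 7195 at 22 C and 5596 to 7337 at 30 C, and 1 of 11 fell (Acta2). Macrophage sums at P28 were 4518 to 6164 at 22 C and 6539 to 8106 at 30 C, without overlap, and 2 of 8 fell. Schwann marker sums were 2300 to 3795 at 22 C and 3200 to 4890 at 30 C, with a median log2 change of -0.27. Of 7 Schwann markers 1 passed and rose (S100b), and the other 6 pointed down. Skeletal muscle sums were 311 to 884 at 22 C and 293 to 15090 at 30 C, and none of 7 tested markers passed. With the muscle score as a covariate, Ednra at P28 kept its change of 0.77 and missed the threshold (limma adjusted p = 0.0710, against 0.00517 at the lowest over 10 settings); 88 genes of the table then passed. The part of these cells in the level of Ednra was not tested otherwise.

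**Figure D1:**
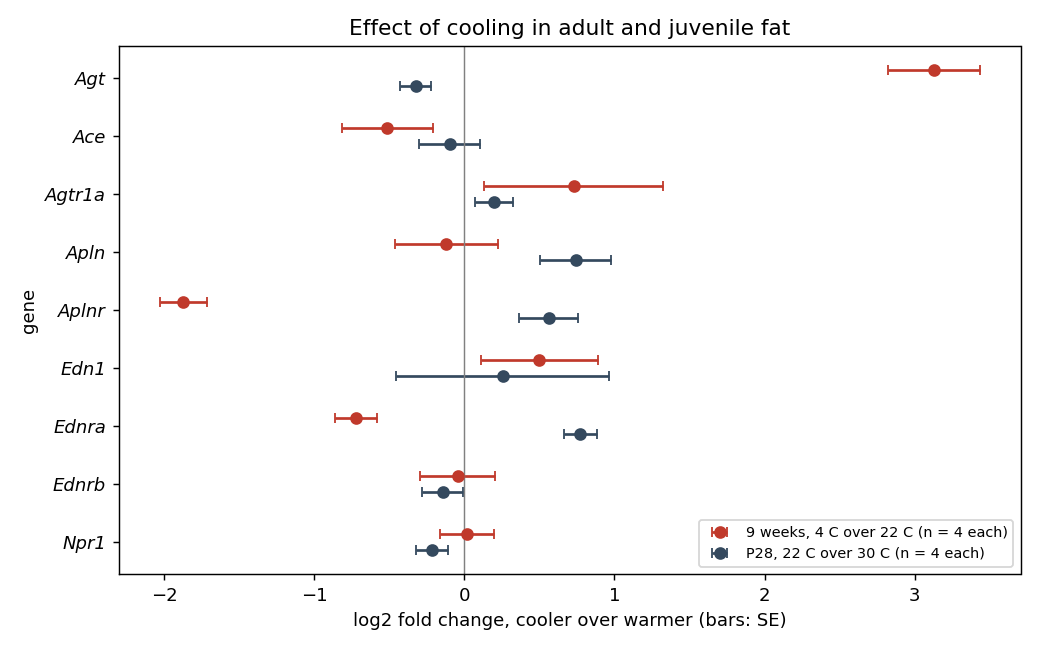
Log2 fold change of cooling (x axis, cooler over warmer) for the 9 genes tested in both wild-type tables, in adults (red, 4 C over 22 C) and at P28 (dark, 22 C over 30 C); points are limma estimates and bars are SE, n = 4 libraries a group. Agt stands at 3.13 in adults and -0.33 at P28, and Aplnr and Ednra lie on opposite sides of 0 at the 2 ages.

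Apln, the ligand of Aplnr, had 158, 216, 106 and 70.0 counts in adult fat at 4 C, against 104, 121, 155 and 181 at 22 C. The groups overlapped fully, and the change was -0.12 ± 0.34 (limma adjusted p = 0.868). At P28 it had 204, 138, 104 and 162 counts at 22 C, against 59.1, 107, 97.0 and 97.3 at 30 C, a change of 0.74 ± 0.24 that did not pass (limma adjusted p = 0.123). The adult effect minus that at P28 was -0.86 ± 0.42 (95% interval -1.75 to 0.03, adjusted p = 0.295, t reference on limma fits).

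The other members did not pass in either cooling comparison. Among them Agtr1a had the largest adult estimate, 0.73 ± 0.60 (limma adjusted p = 0.507), and Ace the next, -0.51 ± 0.31 (limma adjusted p = 0.348). Edn1 was erratic at P28, where 1 library at 22 C had 299 counts and another 16.5. Npr1 and Ednrb had adult estimates of 0.02 ± 0.18 and -0.05 ± 0.25. For these 5 genes the intervals of the adult minus P28 effect all included 0, the widest being that of Edn1, -1.50 to 1.99. Agtr2 stayed under the filter in both wild-type temperature tables, with at most 9.75 counts in adults and 19.8 at P28.

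The bases before the start of Agt, Ednra and Apln are shown because these genes passed in a temperature or TrkA comparison and have an entry in the RefSeq promoter table (GRCm38.p6), which holds 8 of the 10 genes. Agtr2, which also has an entry and was called at low values in a Bcl6 table, is not shown. Each run is the 250 bases before the gene start, on the gene's strand. All 3 genes lie on the minus strand: Agt at chr8:124556587-124569706 (bases shown chr8:124569707-124569956), Ednra at chr8:77663029-77724452 (shown chr8:77724453-77724702) and Apln at chrX:48025146-48034853 (shown chrX:48034854-48035103). Capitals mark matches to the motifs searched on both strands.
Agt: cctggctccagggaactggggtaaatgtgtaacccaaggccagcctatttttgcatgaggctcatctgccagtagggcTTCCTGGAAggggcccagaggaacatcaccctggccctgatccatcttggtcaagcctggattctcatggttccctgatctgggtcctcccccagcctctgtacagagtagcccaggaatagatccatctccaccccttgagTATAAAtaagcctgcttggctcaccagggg
Ednra: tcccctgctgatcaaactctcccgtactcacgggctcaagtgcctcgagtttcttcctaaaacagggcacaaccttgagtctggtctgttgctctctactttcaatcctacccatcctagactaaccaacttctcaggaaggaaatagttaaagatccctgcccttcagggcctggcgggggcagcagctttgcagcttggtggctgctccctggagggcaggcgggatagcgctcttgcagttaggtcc
Apln: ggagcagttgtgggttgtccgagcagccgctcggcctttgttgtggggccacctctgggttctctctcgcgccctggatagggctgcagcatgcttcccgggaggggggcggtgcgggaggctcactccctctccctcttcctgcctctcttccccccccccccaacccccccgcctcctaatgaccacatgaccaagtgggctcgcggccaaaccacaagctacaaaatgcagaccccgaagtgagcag
The motifs were TTCNNNGAA (the Stat factor consensus), TATAAA, TGACGTCA (the cyclic AMP response element), its part TGACG, and ACGTG (the core of hypoxia response sites). Agt held TTCNNNGAA at -172 and TATAAA at -30 relative to the gene start. Of 32851 promoter windows of this length, 7.02% held TTCNNNGAA and 12.4% held TATAAA. The windows of Ednra and Apln held none of the motifs, which says only that these letters are not in them.

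**Figure D2:**
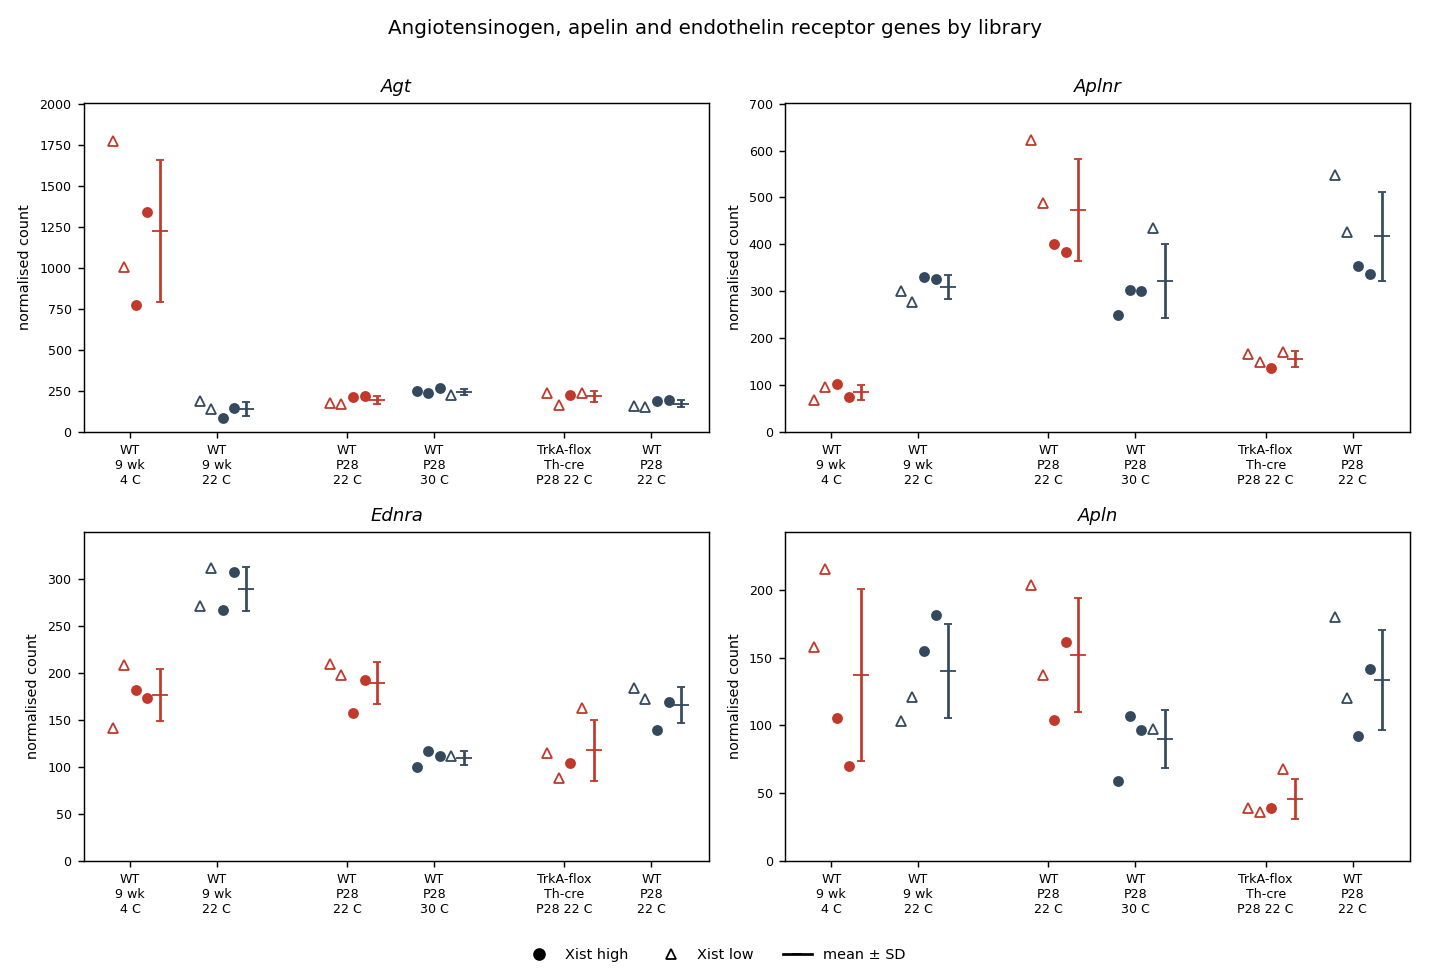
Normalised counts (y axis, linear from 0) of Agt, Aplnr, Ednra and Apln in each library of the adult wild-type, P28 wild-type and TrkA tables (x axis, groups); bars are mean ± SD, n = 4, filled points are Xist-high and open ones Xist-low libraries. The 3 tables were normalised separately, so heights compare within a table only; Aplnr is lowest at 9 weeks and 4 C in the adult table and in TrkA-flox Th-cre in its own.

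In mice carrying floxed TrkA with Th-cre, the ligand and the receptor of the apelin system were both lower than in wild type. They were 2 of 9 tested genes, in a table where 2.66% of 11899 genes passed (317, against 93 without wild-type replicate 4 and 870 without TrkA-flox Th-cre replicate 4). Apln had 39.3, 36.3, 39.3 and 68.1 counts in TrkA-flox Th-cre, against 180, 120, 92.4 and 142 in wild type. Aplnr had 166, 148, 135 and 171 counts in TrkA-flox Th-cre, against 548, 427, 354 and 337 in wild type. Neither gene's groups overlapped, and the log2 changes were -1.53 ± 0.25 for Apln (limma adjusted p = 0.0146) and -1.40 ± 0.15 for Aplnr (limma adjusted p = 0.00194). Without TrkA-flox Th-cre replicate 1 or wild-type replicate 4, Apln missed the threshold, with adjusted p up to 0.0573, while Aplnr passed in all 8 such fits.

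The wild-type libraries of this comparison are those at 22 C of the P28 cooling comparison, so the values of both are given side by side and no likeness is read from them. Ednra had a change of -0.52 ± 0.18 in TrkA-flox Th-cre and 0.77 ± 0.11 with cooling at P28, and passed with cooling alone. Ednra in TrkA-flox Th-cre was 115, 88.0, 104 and 163 counts, against 184, 172, 139 and 169 in wild type, with replicate 4 of the first group inside the second (limma adjusted p = 0.156). Without that replicate it passed (adjusted p = 0.0211). Ednrb pointed up by 0.44 ± 0.14 (limma adjusted p = 0.130), and Agt by 0.33 ± 0.14 (limma adjusted p = 0.244).

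Other cell markers moved in the same libraries. Macrophage markers summed to 7009 to 8644 in TrkA-flox Th-cre and 4005 to 5416 in wild type, and 4 of 8 rose. Skeletal muscle markers summed to 1035 to 5644 against 279 to 791. Endothelial sums were 4953 to 5796 against 5220 to 7170, with a median change of -0.21 and none of 11 past the threshold. Mural sums were 4079 to 5165 against 4856 to 6369, and 2 of 11 fell (Kcnj8 and Notch3). Schwann sums were 1326 to 2018 against 2072 to 3399, where 2 of 7 fell, and progenitor sums 7961 to 9769 against 5849 to 7765, where none of 6 passed. With the muscle score as a covariate 18 genes of the table passed, neither Apln (-1.37, adjusted p = 0.346) nor Aplnr (-1.40, adjusted p = 0.136) among them; over 10 settings the adjusted p of Apln had its lowest value at 0.0126 and that of Aplnr at 0.000446. The muscle sums of the groups did not overlap, so the fit with the muscle score cannot separate muscle content from genotype. The part of these cells in the result was not tested.

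In floxed Bcl6 mice at P25, none of the 10 tested genes passed between the libraries labelled Prx1-cre and those without cre, in a table where 3.53% of 12738 genes passed by limma. At an unadjusted p under 0.05, 3 of the 10 and 1910 genes of the table stood. Ednra had its lowest, median and highest libraries at 140, 203 and 274 counts with Prx1-cre, against 215, 291 and 432 without it. The groups overlapped (-0.58 ± 0.16, limma adjusted p = 0.0655), and quantile normalisation brought it past the threshold (adjusted p = 0.0465, and up to 0.0835 over 9 settings), as did leaving out Prx1-cre library M3 or Bcl6-flox library M1 (adjusted p as low as 0.0416). Agtr2 had 15.5, 35.1 and 61.9 counts with Prx1-cre, against 2.97, 4.93 and 50.7 without it. Of the 7 libraries without cre, 4 lay at or below 4.93 and the others inside the range of Prx1-cre (1.72 ± 0.56, limma adjusted p = 0.121). It passed without Bcl6-flox library F4, the one at 50.7 counts (adjusted p = 0.0218). Libraries F4 and M2 without cre, M2 at 31.2 counts, had progenitor sums of 32798 and 31912 and macrophage sums of 31770 and 24620. The others without cre had progenitor sums of 6162 to 11135 and macrophage sums of 3497 to 7670.5. With Prx1-cre the ranges were 9133 to 23230 and 7184 to 28800. Libraries F4 and M2 were also the highest without cre for Ace, Agtr1a, Edn1 and Ednrb, but not for Agt, Apln, Aplnr, Ednra or Npr1. The part of progenitor cells and macrophages in the level of Agtr2 or of these genes was not tested.

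At 9 weeks and 4 C, Agtr2 (chrX:21484624-21488833) was the 1 gene of 10 that passed, in a table where 14.5% of 13496 genes did. It had 19.3, 16.3, 15.0 and 12.1 counts in the libraries labelled Prx1-cre, against 1.09, 4.95, 0.959 and 7.59 in those without cre. The groups did not overlap (2.11 ± 0.52, limma adjusted p = 0.0295), at values close to the filter of 10. The call was lost without any of the 4 Prx1-cre libraries or Bcl6-flox replicate 1 (adjusted p up to 0.0858), with the muscle score as a covariate (adjusted p = 0.112, against 0.0131 at the lowest over 8 settings), and under a filter of 50, which the gene did not pass. Apln had 224, 225, 212 and 132 counts with Prx1-cre, against 262, 323, 258 and 396 without it, also with no overlap (-0.65 ± 0.21, limma adjusted p = 0.0746). Ednrb was at 775 ± 100 counts with Prx1-cre and 615 ± 69.5 without it (SD, n = 4 each; 0.33 ± 0.11, limma adjusted p = 0.0910). Macrophage markers summed to 18710 to 31550 with Prx1-cre and 10630 to 14300 without it, and 8 of 8 rose. Endothelial sums were 23240 to 27220 with Prx1-cre and 15090 to 25210 without it, and 2 of 12 rose (Vwf and Plvap). Their part in these values was not tested.

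Agt in this table rested on 1 library. It had 2288, 1722, 2230 and 1628 counts with Prx1-cre, against 1307, 1200.5, 5447 and 1149.9 without cre. Replicate 3 of the floxed mice without cre, at 5447 counts, was also the library with a muscle sum of 473600, where the other 7 lay between 150.0 and 20156. With all libraries the log2 change was 0.13 ± 0.47 (limma adjusted p = 0.871), and without that library it was 0.68 (adjusted p = 0.00743). Leaving it out also brought Agtr1a (-0.77, adjusted p = 0.0470) and Apln (-0.73, adjusted p = 0.0393) past the threshold, in a fit where 3548 genes passed. Over 9 other settings with all libraries, the muscle score as a covariate among them, the change of Agt lay between 0.13 and 0.95. It passed in none of these (limma adjusted p = 0.138 at the lowest). Whether muscle bears on the Agt value was not tested otherwise.

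**Figure D3:**
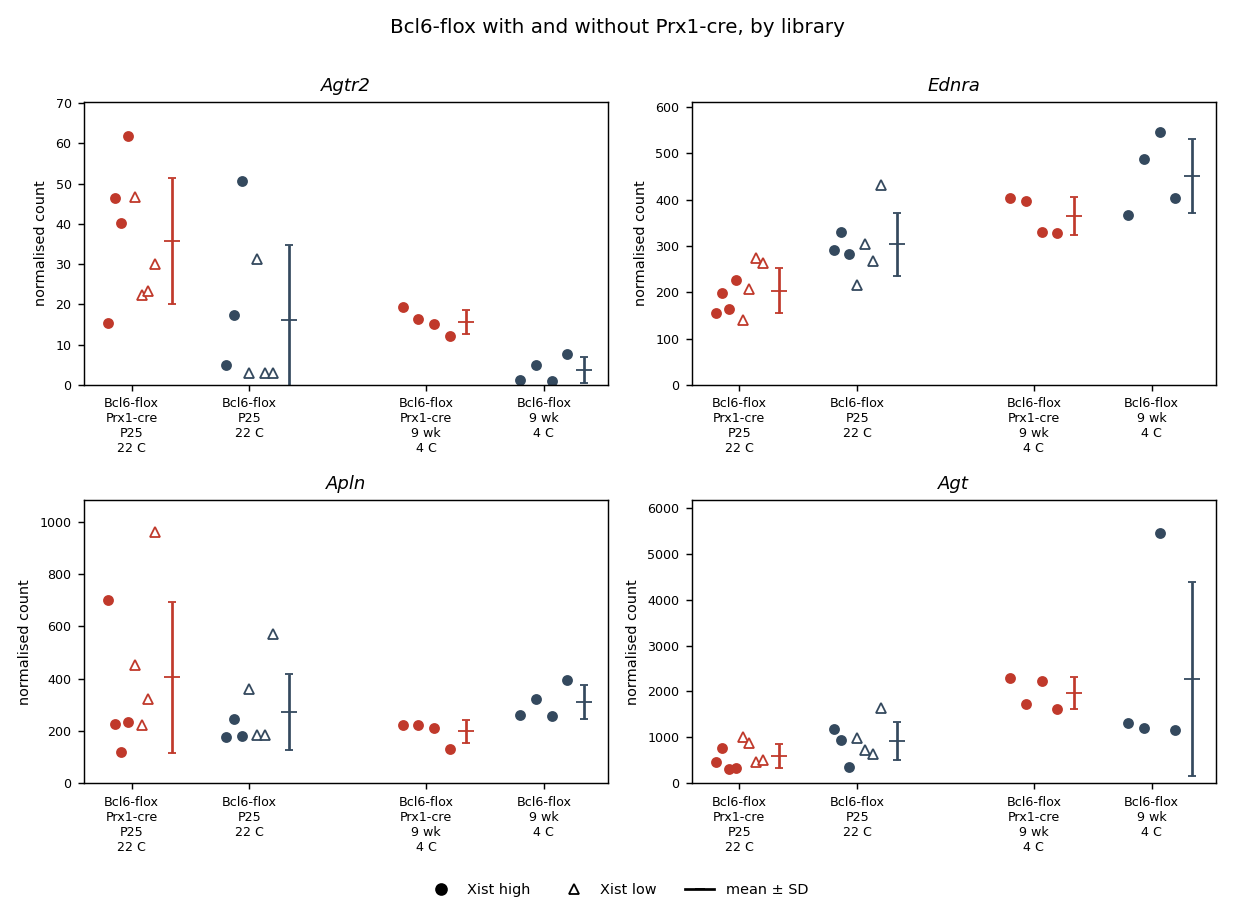
Normalised counts (y axis, linear from 0) of Agtr2, Ednra, Apln and Agt by library in the P25 and 9-week Bcl6 tables (x axis, groups; n = 8 and 7, and 4 and 4), with mean ± SD; filled points are Xist-high and open ones Xist-low libraries, and the tables were normalised separately. In the 9-week table all 4 Agtr2 values with Prx1-cre lie above those without cre, and 1 Bcl6-flox library holds 5447 counts of Agt.

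Adult wild-type libraries fall into 2 Xist-high and 2 Xist-low ones per temperature, Xist being the RNA of the inactive X chromosome, and several members followed that split. At 22 C Agtr1a had 249 and 189 counts in Xist-high libraries and 102 and 77.0 in Xist-low ones. Ace, Edn1, Ednrb, Apln, Aplnr and Npr1 were also higher in both Xist-high libraries at 22 C, while Agt and Ednra overlapped between the classes. The share of all genes that split this way was not counted, so nothing is read from how many members did. Muscle sums split the same way at 22 C (44567 and 20088 in Xist-high libraries against 96.5 and 96.0), as did those of macrophage markers (14812 and 11741 against 5032 and 4813), progenitor markers (22262 and 19073 against 8018 and 8454) and epithelial markers (3954 and 3017 against 229.8 and 31.1). Xist class and these contents cannot be told apart there. At 4 C Agtr1a kept the split (460 and 446 counts in Xist-high libraries against 159 and 86.3), as did epithelial sums (7744 and 6312 against 2265 and 8.21). Muscle, macrophage and progenitor sums overlapped between the classes at 4 C, as did Ace, Edn1, Ednrb, Aplnr and Npr1, and Apln was lower in both Xist-high libraries. Within each class the cold effects on Agt (3.20 in Xist-high, 3.05 in Xist-low), Aplnr (-1.92, -1.83) and Ednra (-0.69, -0.76) kept their direction, with 2 libraries against 2. That was fixed beforehand, since the temperature groups of these genes did not overlap over all libraries.

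Apln did not. In Xist-high libraries it had 106 and 70.0 counts at 4 C, against 155 and 181 at 22 C, and in Xist-low ones 158 and 216 counts at 4 C, against 104 and 121 at 22 C. The groups did not overlap in either class, with opposite directions (-0.95 and 0.71). The interaction of temperature with Xist class, added after this split was seen, was -1.67 ± 0.36 for Apln and did not pass over 12118 genes (limma adjusted p = 0.263). No gene of the table passed for it, and Apln stood at an unadjusted limma p of 0.00195. At P28 the classes were uneven, with 2 of 4 libraries Xist-high at 22 C, 3 of 4 at 30 C and 1 of 4 in TrkA-flox Th-cre. The library at 30 C with 434 counts of Aplnr was the Xist-low one there. Within each class Aplnr at P28 pointed higher at 22 C, by 0.47 in Xist-high and 0.34 in Xist-low libraries. The Xist-low class held 1 library at 30 C. Classes of this size are too small to bear on the change over all libraries, which did not pass.

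**Figure D4:**
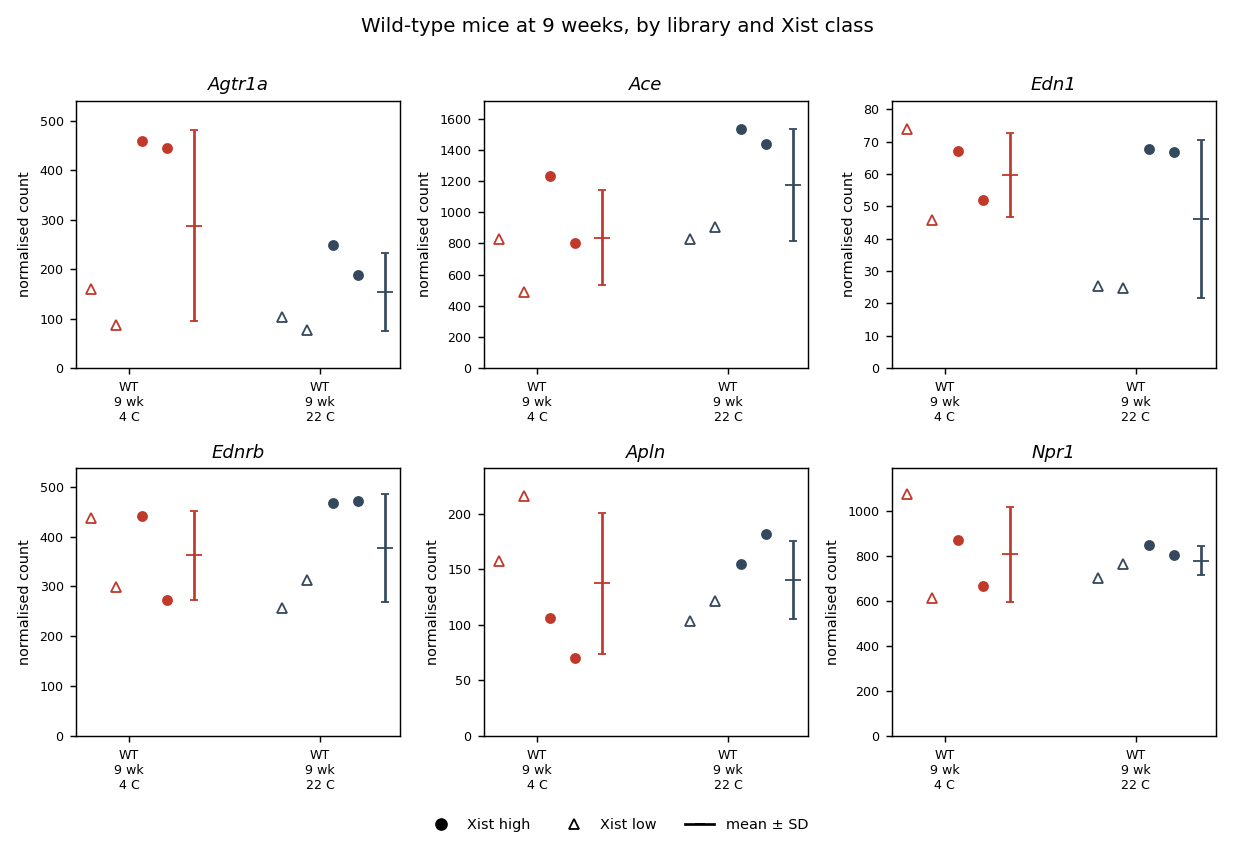
Normalised counts (y axis, linear from 0) of the 6 members that were tested without a call in adult wild-type fat (Agtr2 was under the filter), by library at 4 C and 22 C (x axis); filled points are Xist-high and open ones Xist-low libraries, and bars are mean ± SD, n = 4. Agtr1a is higher in the Xist-high libraries at both temperatures, and Apln changes in opposite directions in the 2 classes.

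Around these genes, 50 others of the same and neighbouring systems were counted, a list also chosen with earlier results known. In adult cooling 1 of 23 tested rose and 1 fell, beside 4.47% of all tested genes: Kng2, a kininogen, the precursor of kinins, had 104 ± 43.4 counts at 4 C against 7.32 ± 4.98 at 22 C (3.74 ± 0.49, limma adjusted p = 0.0129), and Ramp2, a partner of the adrenomedullin receptor, 256 ± 67.6 against 456 ± 62.4 (-0.86 ± 0.19, limma adjusted p = 0.0448). At P28 1 of 24 rose with cooling, the protease Ctsd, beside 4.45% of all tested genes. In TrkA-flox Th-cre, where 2.66% of all tested genes passed, 1 of 24 fell, the endothelial nitric oxide synthase Nos3, at 233 ± 73.0 against 529 ± 84.5 counts in wild type (-1.21 ± 0.20, limma adjusted p = 0.0169).

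In the Bcl6 tables at P25, where 3.53% of all tested genes passed, 2 of 27 rose in the libraries labelled Prx1-cre, among them the natriuretic peptide clearance receptor Npr3 (2661 ± 1081 against 1206 ± 566 counts without cre, limma adjusted p = 0.0473), and the peptidase Mme fell (693 ± 229 against 1031 ± 97.3 counts, limma adjusted p = 0.0482). At 9 weeks and 4 C 7 of 28 rose and 3 fell, beside 14.5% of all tested genes. By p the leading ones were Mme, lower (-0.62 ± 0.08), the carboxypeptidase Prcp, higher (0.77 ± 0.10), Kng2, lower (-1.94 ± 0.27), and the vasopressin receptor Avpr1a, higher (1.30 ± 0.21), with limma adjusted p between 0.00232 and 0.00526.

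**Figure D5:**
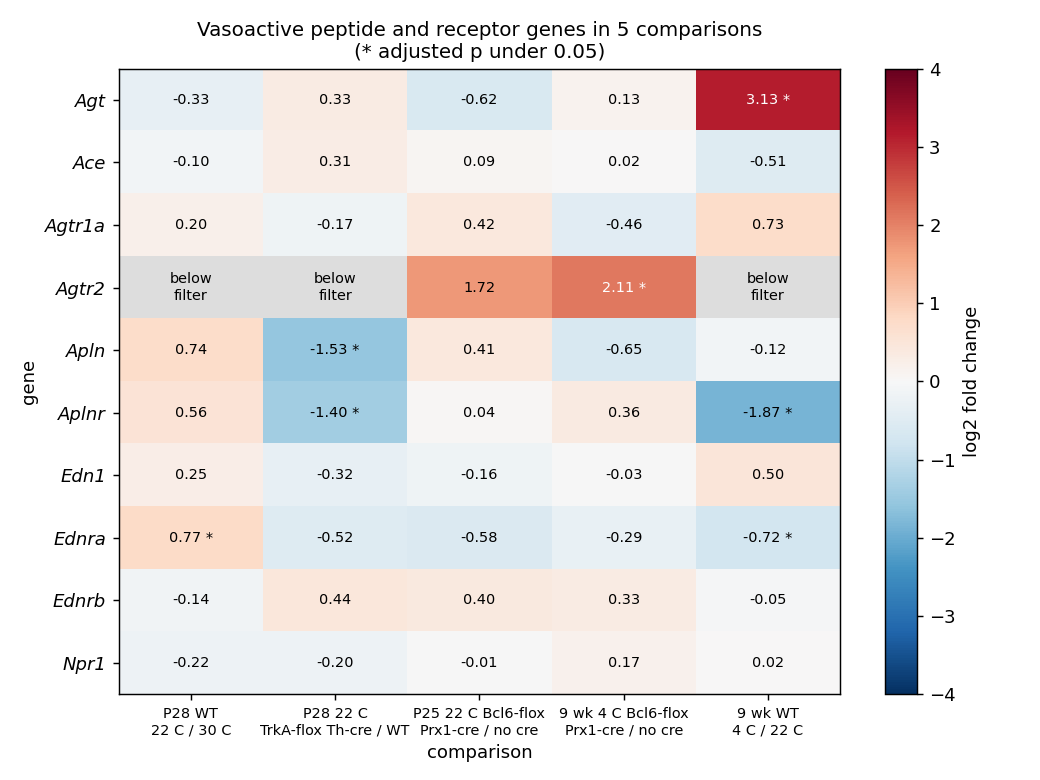
Log2 fold change (colour and number) of the 10 genes (rows) in the 5 comparisons (columns), each named first group over second; an asterisk marks an adjusted p under 0.05 and grey cells did not pass the filter on low values. The 7 marked cells are Ednra at P28, Apln and Aplnr in TrkA-flox Th-cre, Agtr2 in the 9-week Bcl6 table, and Agt, Aplnr and Ednra in adult cooling.

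Across the 39 libraries of the 4 tables that do not repeat a library, with each gene centred within its table, the closest patterns to each member were listed as a description; libraries of a table share its groups and depth. Agt was most like Glud1, a mitochondrial glutamate dehydrogenase (r = 0.875 of log2 values), and Hsd17b10 (r = 0.87), yet within the P28 table those r were -0.29 and -0.27. Aplnr was most like Pcdh12, an endothelial protocadherin (r = 0.822), with r between 0.34, in the P28 table, and 0.91 within tables. Ednrb was most like Mrc1, a macrophage mannose receptor (r = 0.914), and kept r between 0.61 and 0.95 in each table. Ace was most like Cadm3 (r = 0.921).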

How the data were processed

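RNA of 43 samples of mouse inguinal fat was sequenced, with a stranded mRNA kit per the labels' protocols. The deposited signal values are normalised counts per gene in 5 tables, each with the libraries of its comparison. The submitters' processing notes name kallisto and DESeq2 and the mm10 build, without versions or settings. The values are not whole. Depth was estimated from the spacing of low values, of which 30.2 to 76.0% were whole multiples within 0.02, so reads were not recovered.

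The tables were normalised separately and each was tested on its own: limma 3.58.1 (R 4.3.3) with a mean-variance trend on log2(value + 1), which understates changes of low genes. Genes with a value of at least 10 in n libraries, n being the size of the smaller group, were tested. Adjustment was by Benjamini and Hochberg over all tested genes, at 0.05, also where other settings are quoted. Adult and P28 effects were compared by a t reference with Welch-Satterthwaite degrees of freedom. Scripts were tested on simulated data.

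The members and lists were chosen with earlier results of these data known. Named genes were the members, the targeted genes, Ucp1, up to 4 related genes per table by smallest p, and the 2 genes most like each member; further markers were named after their values were seen, and 2 genes under this rule are not reported here. P25 columns were matched to groups only; their letter and number name the libraries. A library was called Xist-high above 100. Symbols were matched by gene ID, and 21 IDs matched none. Same-numbered samples did not deviate together in every pair, so numbers were not treated as pairs. Since the labels do not state that replicates are different animals, p-values reflect variation between libraries, which may be technical. Alternatives were pseudocounts, filters, scalings, covariates for Xist and muscle, a replicate block, no trend and each library left out. Figures used matplotlib 3.10.9.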

Additional observations from a re-analysis of the deposited data

Results flagged for a closer look

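Among 90 pairs of a member and a group, 4 had a library far from the rest of its group; chance alone sets about 1 in 20 groups apart in this way. Agt was lowest in TrkA-flox Th-cre replicate 2, at 166 counts, with 227 the nearest. Agt was highest in floxed Bcl6 replicate 3 at 9 weeks and 4 C, at 5447 counts, with 1307 the nearest. Apln was highest in TrkA-flox Th-cre replicate 4, at 68.1 counts, with 39.3 the nearest. Apln was lowest in the library labelled Prx1-cre replicate 4 at 9 weeks and 4 C, at 132 counts, with 212 the nearest.

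The effect of cooling differed between adults and P28 for 3 genes by the test of the difference, by 3.45 for Agt, by -2.44 for Aplnr and by -1.49 for Ednra on the log2 scale. In adult wild-type fat, the cold effect on Apln ran in opposite directions in Xist-high and Xist-low libraries, with an interaction of -1.67 that did not pass over all genes (limma adjusted p = 0.263).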

How the results depend on the processing

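The 3 calls of the contrast of cooling effects, and the calls of Agt and Aplnr in adult cooling, held under every alternative tried, with changes between 2.90 and 3.32 for Agt in adults and between -1.97 and -1.78 for Aplnr when a library was left out. With the muscle score as a covariate 0 members passed at P28 and 0 in the TrkA table, where 88 and 18 genes passed in all, and 2 in the 9-week Bcl6 table (Agtr1a and Apln, both lower). A filter of 50 left 0 members called there, since it removes Agtr2, and quantile normalisation gave 1 call (Ednra) at P25. Leaving out a library gave 1 to 3 calls in the TrkA table, 0 to 1 at P25 and 0 to 4 at 9 weeks in the Bcl6 table. Over all genes it gave 288 to 666 calls at P25, 1055 to 3548 at 9 weeks in the Bcl6 table and 144 to 562 in the contrast. The causes were not tested otherwise.

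Estimates changed sign in 48 member fits. Those of Edn1 at P28 and in TrkA-flox Th-cre were not near 0 but had a wide SE (0.25 ± 0.71 and -0.32 ± 0.68). The Edn1 estimate in the 9-week Bcl6 table was near 0 (-0.03 ± 0.31). With the muscle covariate the sign changed for Ace at P28 (0.21), Npr1 in TrkA-flox Th-cre (0.0617) and Aplnr at P25 (-0.22). It also changed for Ace in the 9-week Bcl6 table (-0.16) and Npr1 in adult cooling (-0.00178). Quantile normalisation turned Npr1 at P25 (0.0172) and in adult cooling (-0.0697), and the Xist covariate turned Edn1 in the contrast of cooling effects (-0.11). With a library left out the ranges crossed 0 for Ace at P28 (-0.22 to 0.0571), Edn1 at P28 (-0.43 to 0.93) and in TrkA-flox Th-cre (-1.001 to 0.36). They also did so for Ace (-0.0590 to 0.33), Aplnr (-0.0608 to 0.27) and Npr1 at P25 (-0.0614 to 0.0629), and for Agt (-0.0725 to 0.68), Ace (-0.0605 to 0.0999) and Edn1 (-0.26 to 0.19) in the 9-week Bcl6 table. In adult cooling they did for Apln (-0.38 to 0.16), Ednrb (-0.21 to 0.0793) and Npr1 (-0.13 to 0.14), and in the contrast for Edn1 (-0.44 to 0.93) and Ednrb (-0.0673 to 0.23).

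Same-numbered samples did not deviate together in every pair: correlations of same-numbered deviations ran from -0.662 to 0.768, with some below 0.1 in each table. In adult wild type pair 1 stood at -0.262 and pairs 2 to 4 at 0.501 to 0.768, and same-numbered libraries there shared their Xist class. With the replicate block the calls were 1 at P28, 2 in the TrkA table, 3 in the contrast, 0 in the 9-week Bcl6 table (Agtr2 adjusted p = 0.0744) and 4 in adult cooling (Agtr1a added, adjusted p = 0.0489). The block moved the calls over all genes to 236 at P28, 1171 in the 9-week Bcl6 table and 1666 in adult cooling, and not every sample correlated best with its own number. No paired analysis was possible at P25 because its columns carry no title number.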

Other observations

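Set on 1 scale, as counts in each 1000000 of a library's summed values, the groups can be ordered across tables. The limit is that the tables were normalised separately and differ in depth, age, temperature, genotype and share of Xist-high libraries. These cannot be told apart in the order. Agt stood at 157 ± 57.2 in wild type at 9 weeks and 4 C and at 17.9 ± 4.87 at 22 C (SD, n = 4 each), the highest and the lowest of the 9 groups. At P28 it was 37.8 ± 5.31 in wild type at 22 C and 49.4 ± 4.73 at 30 C, and 47.9 ± 8.92 in TrkA-flox Th-cre. The libraries labelled Prx1-cre had 83.4 ± 13.9 at 9 weeks and 4 C, against 91.3 ± 76.3 without cre, and 57.8 ± 26.0 at P25, against 87.0 ± 35.8 without cre. Ordered by level, the spans of mean ± SD of neighbouring groups failed to overlap for the lowest pair alone, wild type at P28 and 22 C and wild type at 9 weeks and 22 C.

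Aplnr was highest at P25, with 136 ± 57.6 in the libraries labelled Prx1-cre and 120.0 ± 36.1 in those without cre. Wild type at P28 had 91.6 ± 21.6 at 22 C and 64.9 ± 15.2 at 30 C. All groups at 9 weeks lay lower, with 10.8 ± 2.22 in wild type at 4 C and 40.6 ± 6.02 at 22 C, and 21.7 ± 9.32 with Prx1-cre and 15.7 ± 3.59 without it in floxed Bcl6 mice at 4 C. TrkA-flox Th-cre at P28 stood at 34.2 ± 4.95, inside the range of the 9-week groups. The spans of neighbours failed to overlap between wild type at P28 and 30 C and wild type at 9 weeks and 22 C alone.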
